A study of Mus musculus with 9 samples.

Results

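The genes described here are 34 enzymes and regulators of the cellular defence against oxidants, chosen by name: the transcription factor NRF2 (gene Nfe2l2) and its repressor Keap1, enzymes that NRF2 induces, and the thioredoxin, superoxide dismutase, peroxidase, peroxiredoxin and glutathione transferase families. Signals of their mRNA in the retina came from 9 Affymetrix GeneChip arrays for the mouse, in 3 groups of 3. All mice were female, aged 10 weeks, of the albino strain BALB/c (spelled Babl/c in the labels), with no engineered allele named. One group was kept in a dark environment (control), one under warm white LEDs (light-emitting diodes) of 2954K colour temperature and one under cold white LEDs of 7378K, both at 1000 lx. Housing lasted 14 days, lights on for 12 h and off for 12 h. For controls the labels name this cycle too but no illuminance, which leaves their light unknown. Each array held RNA pooled from the right retinas of 3 mice, and n = 3 pools per group throughout. A pool measures a whole tissue, so fewer cells of a type and less RNA per cell cannot be told apart.

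Each gene was represented by 1 probe set, a group of short probes for one transcript: the one with the highest mean over the 9 arrays among probe sets annotated to that gene alone. Of the 34 genes, 30 had such a probe set, among 18193 genes in all. Of the 30, 28 had a mean signal above the intensity filter of 5.91 on the log2 scale and were tested together with the other genes, 12765 in all. Below the filter were Slc7a11, the cystine carrier that feeds glutathione synthesis, and Sod3, the extracellular superoxide dismutase. Every control of Sod3 lay above the filter value, and its mean fell below that value through the LED pools. Prdx1, a cytosolic peroxiredoxin, was present only on probe sets shared with the predicted gene Gm21399, and G6pdx, Prdx5 and Prdx6 were not analysed here. All signals below are on the log2 scale, where a difference of 1 is a change of 2-fold.

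NRF2 is held in the cytoplasm by KEAP1, which marks it for degradation. Oxidants and electrophiles modify cysteines of KEAP1, NRF2 then escapes to the nucleus, pairs with small MAF proteins and switches on genes that carry an antioxidant response element. The products make glutathione, reduce thioredoxin and remove quinones and peroxides. Photoreceptors carry much oxygen and polyunsaturated lipid, and the albino eye has no melanin to screen light, so these enzymes are often measured in retinal light damage.

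The core of the antioxidant response element was searched for as TGACNNNGC, on both strands, in RefSeq promoters of mouse build GRCm38.p6, each with 250 bases before and 50 after a gene's start. A promoter was at hand for 29 of the 34 genes, and 7 of them (24.1%) held the motif, against 14% of 27025 genes. The median GC content of these promoters was 60.7% against 52.8% for all genes, and its part in the difference was not tested. A match is a string of letters and not a measured binding site. The 7 windows follow because NRF2 acts through this element. They are written 5′ to 3′ on the gene's own strand, with the fixed letters of the motif in capitals. TGAC followed by GC marks a match on the gene's strand, and GC followed by GTCA a match on the opposite strand.
Nfe2l2: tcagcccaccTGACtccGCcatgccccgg
Gclm: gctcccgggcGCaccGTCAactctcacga
G6pdx: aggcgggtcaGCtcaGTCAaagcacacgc
Srxn1: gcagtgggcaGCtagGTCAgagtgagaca
Txnrd1: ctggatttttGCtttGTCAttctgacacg
Prdx1: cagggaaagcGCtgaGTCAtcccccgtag
Sod1: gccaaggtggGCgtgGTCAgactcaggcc

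The window of Nfe2l2 lies at chr2:75704885-75704913 (minus strand), with the motif starting 240 bases before the gene's start. That of Gclm lies at chr3:122245413-122245441 (plus strand, 134 bases before) and that of G6pdx at chrX:74428919-74428947 (minus strand, 57 bases before). The window of Srxn1 is at chr2:152105542-152105570 (plus strand), where the motif begins 28 bases after the start. Those of Txnrd1, at chr10:82859104-82859132 (plus strand, 92 bases before), Prdx1, at chr4:116685456-116685484 (plus strand, 133 bases before), and Sod1, at chr16:90220696-90220724 (plus strand, 56 bases before), complete the set. Of these genes, Nfe2l2, Gclm, Srxn1, Txnrd1 and Sod1 were tested on the arrays, and their values are given by role.

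The arrays matched their tissue label: 13 of 13 measured rod markers lay above the filter on every array. Several arrays stood apart in other respects. Markers of lens, 12 genes such as crystallins, summed to a linear signal of 159000 in control 3. The sum was 28900 in 2954K 3, 8490 in 7378K 3 and 1530 to 3490 in the other 6 arrays. All 12 lay above the filter in control 3 and 2954K 3, 9 in 7378K 3, and 1 to 5 elsewhere. Markers of the pigment epithelium (12 genes) summed to 14000 to 47200 in controls, 37100 to 50400 in 2954K and 20900 to 42700 in 7378K. This sum hides a split of the list in 2954K 3. Rpe65, Ttr, Best1, Rdh5, Lrat and Rgr were lowest there among the 2954K pools. Mlana, Tyrp1, Dct, Pmel, Slc45a2 and Trpm1 were higher there than in any other array. The 15 measured microglial and macrophage markers summed to 2670 to 3860 in controls and 8980 to 10700 under LED light. The signal gap between transcript ends was read from Gapdh and beta-actin, as the mean log2 signal of their 3′ probe sets minus that of their 5′ probe sets (here the 3′ to 5′ gap). It was 0.33, 0.20 and 0.42 in controls 1 to 3, 2.78, 0.21 and 1.05 in 2954K 1 to 3, and 1.80, 1.67 and 1.55 in 7378K 1 to 3. The same gap of the dap spike-in, an RNA added for labelling, was 1.64, 1.37 and 1.81, then 3.02, 1.34 and 2.19, then 2.76, 2.70 and 2.77. The parts of tissue RNA and labelling in the gap were not tested. Both gaps were larger in every 7378K array than in every control, so light and gap cannot be told apart there. Differences below with a gap as a covariate are therefore not corrected effects of light.

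Neither LED light changed any of the 28 tested genes past the threshold (limma, Benjamini-Hochberg adjusted p under 0.05 over all 12765 genes). In 2954K against control, 0 of 28 were called, against 1.22% of all genes. In 7378K against control, 0 of 28 were called, against 3.52%. In 7378K against 2954K, 0 of 28 and 0% of all genes were called. With both LED groups averaged against control, a comparison added after the values were seen, 0 of 28 were called, against 3.45%. The limma count stayed at 0 of 28 in each comparison with the third arrays left out and with the 3′ to 5′ gap as a covariate. Fewer genes were called in all under both settings. In the order above, 90, 146, 0 and 164 of all 12765 genes were called without the third arrays. With the covariate the numbers were 102, 136, 0 and 153. The LED comparisons share the 3 control arrays and are not independent of each other.

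Without adjustment, limma p-values under 0.05 were found for 2 of 28 genes in 2954K, 4 in 7378K, 0 in 7378K against 2954K and 4 in the average of both LED groups. The same held for 13.1%, 22.6%, 4.07% and 21.6% of all genes. The median difference over the 28 genes was 0.06 in 2954K and 0.02 in 7378K, beside 0.01 and 0.04 over all genes, and it was -0.06 in 7378K against 2954K beside 0.03. The members' median residual standard deviation (SD) between pools was 0.18, against 0.20 for all genes.

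At the chosen probe sets the error bounded the size of a difference for most genes. In each of the 3 comparisons between groups, the 95% confidence interval of the difference lay within 2-fold in both directions for 24 of 28 genes. Of all 12765 genes this held for 10697 in 2954K, 10339 in 7378K and 11093 in 7378K against 2954K. The exceptions among the members were Gpx3, Gstm1, Gstm2 and Osgin1, whose pools differed most within groups. Within 1.5-fold lay the intervals of 16 members in 2954K, 14 in 7378K and 19 in 7378K against 2954K, beside 7019, 6178 and 7933 of all genes. These bounds do not hold for other probe sets of the same genes, where the interval lay within 2-fold for 14 of 26 in 2954K and 11 of 26 in 7378K.

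**Figure D1:**
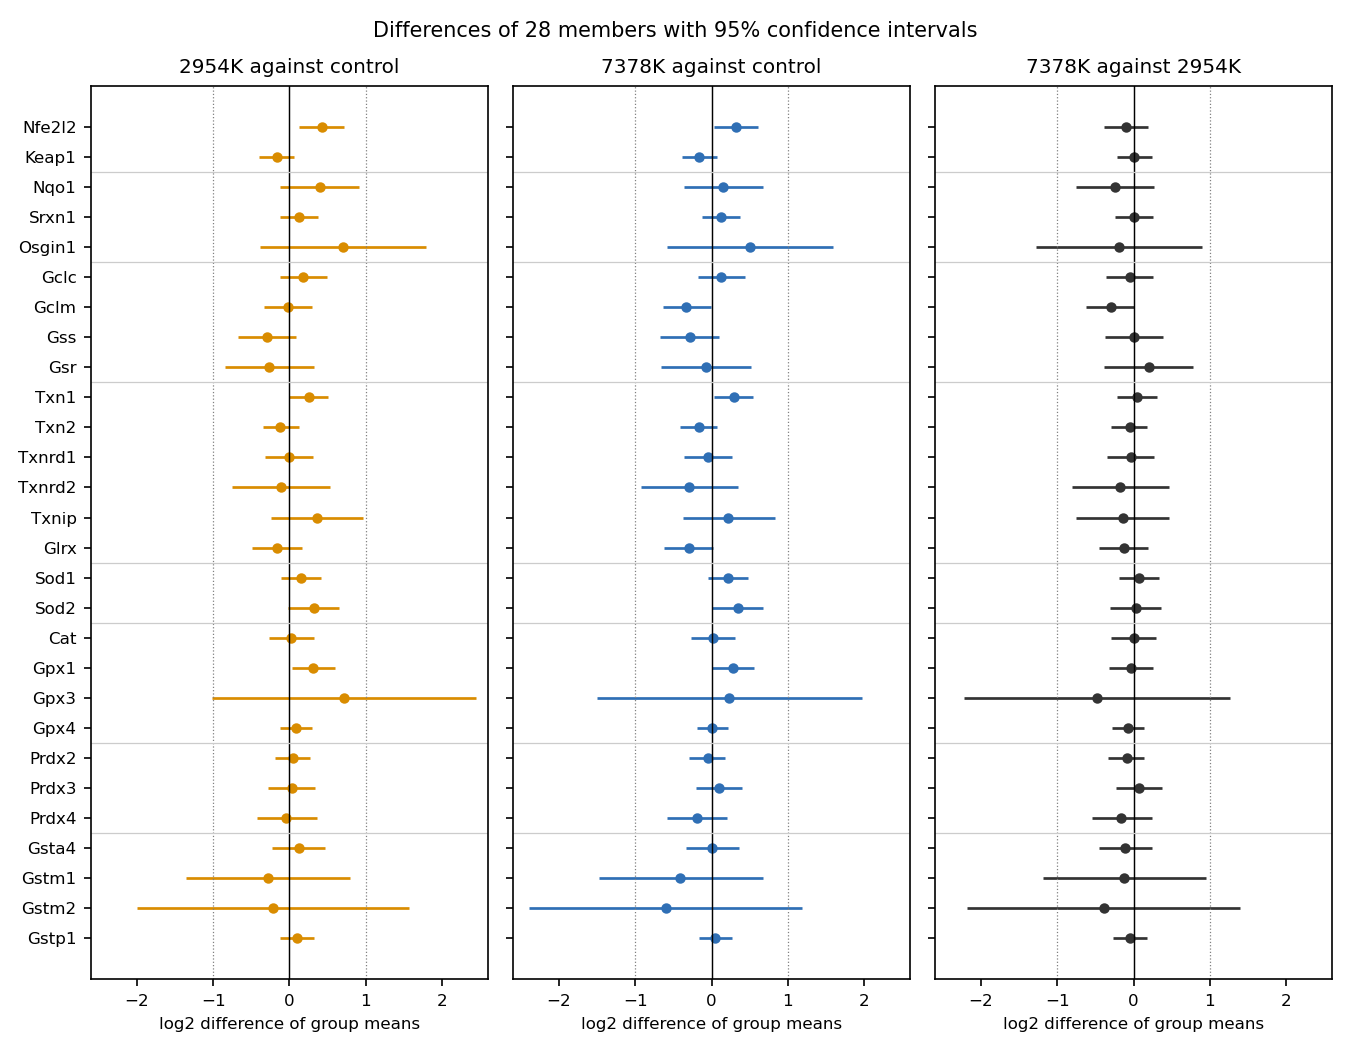
Log2 differences of group means (points) with 95% confidence intervals (bars) for the 28 tested genes, ordered by role, in 2954K against control, 7378K against control and 7378K against 2954K (x axes in log2 units, dotted lines at 2-fold). Intervals are narrow for most genes and reach past 2-fold for Gpx3, Gstm1, Gstm2 and Osgin1, and none of the differences at these chosen probe sets passed the adjusted threshold.

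The regulators were the 2 members whose LED pools all lay on one side of the controls at the chosen probe set. Nfe2l2 encodes NRF2 itself. Its signals were 9.40, 9.31 and 9.30 in controls 1 to 3, 9.64, 9.72 and 9.90 in 2954K and 9.58, 9.90 and 9.50 in 7378K. All 6 LED pools lay above all 3 control pools. The difference from control was 0.42 in 2954K (95% interval 0.13 to 0.71, 1.34-fold), with a limma adjusted p of 0.20. In 7378K it was 0.32 (0.03 to 0.61, 1.25-fold), with a limma adjusted p of 0.18. Averaged over both LED groups it was 0.37, with an adjusted p of 0.098, the smallest of any member. With the 3′ to 5′ gap as a covariate, the Nfe2l2 differences were 0.47 and 0.38. Without 7378K array 2 the difference in 7378K was 0.20. A second probe set of Nfe2l2 was below the filter, at 0.96 to 5.48.

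Keap1 encodes the repressor. Its signals were 10.04, 10.11 and 10.06 in controls, 9.77, 9.94 and 9.97 in 2954K and 9.95, 9.94 and 9.83 in 7378K. All 6 LED pools lay below all 3 controls, by a mean of 0.17 in 2954K (interval of the difference -0.40 to 0.06) and 0.16 in 7378K (-0.39 to 0.07). The limma adjusted p-values were 0.50 and 0.39. Keap1 had the lowest residual SD of the members, 0.07.

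Separation of groups was common in these arrays. In 2954K against control, groups did not overlap for 2 of 28 members, Nfe2l2 and Keap1, against 15.2% of all genes. In 7378K against control they did not overlap for 10 of 28, against 36.4% of all genes. Of the 10, 7 were higher in 7378K (21.6% of all genes): Nfe2l2, Nqo1, Srxn1, Txn1, Sod1, Sod2 and Gpx1. The other 3 were lower (14.8% of all genes): Keap1, Gclm and Glrx. In 7378K against 2954K, only Gclm did not overlap, against 8.55% of all genes. At the chosen probe sets, Nfe2l2 and Keap1 were the 2 members for which all 6 LED pools lay on one side of all controls, which held for 10.5% of all genes. Counted in either direction, the members' shares did not exceed these backgrounds.

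**Figure D2:**
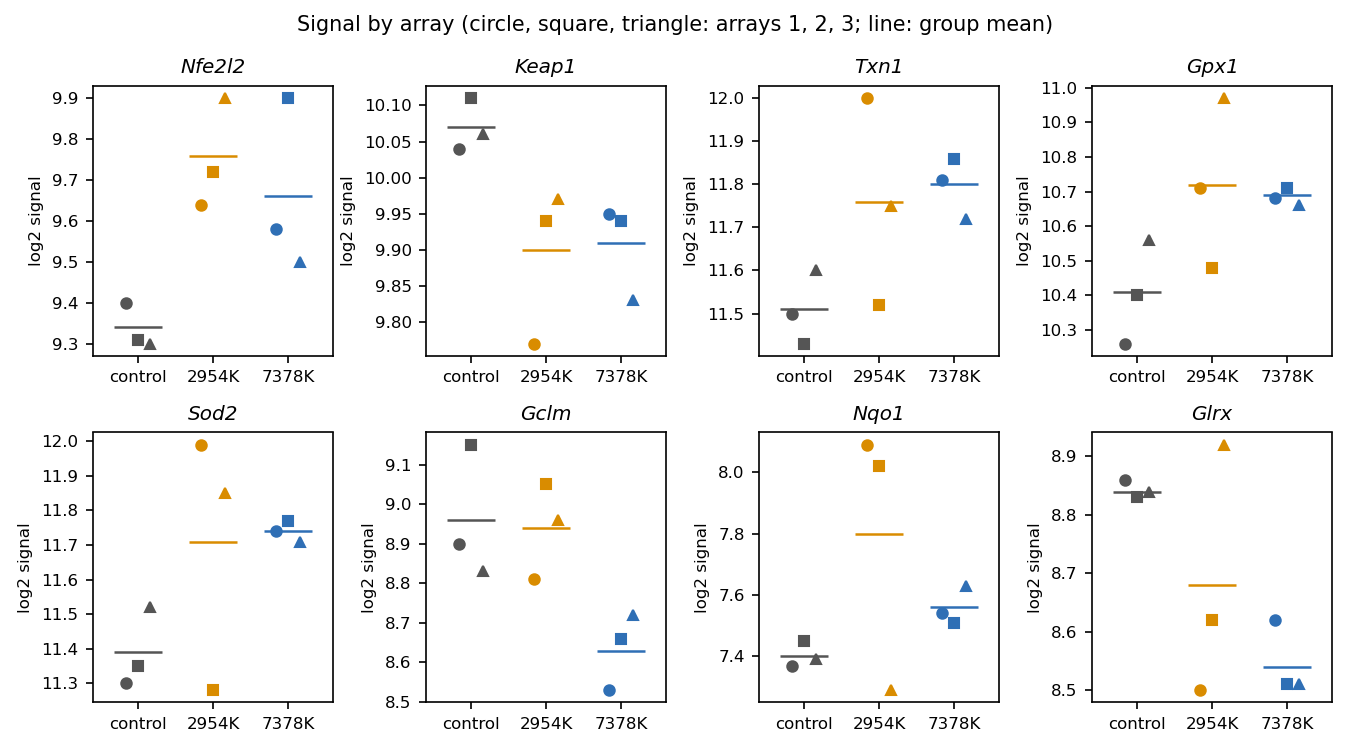
Log2 signal of Nfe2l2, Keap1, Txn1, Gpx1, Sod2, Gclm, Nqo1 and Glrx in each pool (circle, square and triangle for arrays 1, 2 and 3 of control, 2954K and 7378K), with the group mean as a line and a separate y axis for each gene. LED pools lie above controls for Nfe2l2 and below them for Keap1, and 2954K array 2 (square) lies near the controls for Txn1, Gpx1 and Sod2.

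Enzymes that NRF2 classically induces differed from control by less than the test could call. Nqo1 encodes a quinone reductase whose mRNA is a common readout of NRF2. Its signals were 7.37, 7.45 and 7.39 in controls, 8.09, 8.02 and 7.29 in 2954K and 7.54, 7.51 and 7.63 in 7378K. In 2954K, pools 1 and 2 stood above the controls and pool 3 below them, and the difference was 0.40 (interval -0.12 to 0.91). In 7378K all pools lay above all controls, by a mean of 0.15 (interval -0.36 to 0.67). The difference between 7378K and 2954K was -0.24 (interval -0.75 to 0.27, limma adjusted p = 0.98).

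Srxn1, sulfiredoxin, which restores overoxidised peroxiredoxins, had means of 10.27 in controls, 10.39 in 2954K and 10.40 in 7378K. Its differences of 0.12 and 0.13 had intervals from -0.12 to 0.37. Osgin1, a stress-induced gene near the filter, ranged from 5.10 to 7.09 over the 9 arrays. Its means were 5.76 in controls, 6.46 in 2954K and 6.27 in 7378K, with a residual SD of 0.66. Its controls read 5.10, 5.34 and 6.85. The control mean lay below the filter value, so only the LED pools put Osgin1 in the test.

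At the chosen probe sets, genes of glutathione supply had means below control for 3 of 4 genes in both LED groups, and none passed the threshold. Gclc and Gclm encode the catalytic and modifier subunits of glutamate-cysteine ligase, the limiting step of glutathione synthesis, Gss the synthetase, and Gsr the reductase that recycles oxidised glutathione. Gclm had signals of 8.90, 9.15 and 8.83 in controls, 8.81, 9.05 and 8.96 in 2954K and 8.53, 8.66 and 8.72 in 7378K. All 7378K pools lay below every pool of the other groups. The difference was -0.33 from control (interval -0.64 to -0.01, limma adjusted p = 0.20) and -0.30 from 2954K (-0.62 to 0.01, limma adjusted p = 0.98). With the gap covariate the Gclm difference from control was -0.18. In 2954K against control it was -0.02.

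Gclc, the partner subunit, differed by 0.18 in 2954K and 0.13 in 7378K. Gss differed by -0.30 and -0.28, with intervals from -0.68 to 0.10, and Gsr by -0.27 and -0.07. The second probe sets of Gclc and Gsr gave -0.69 and -0.81 in 2954K and -0.83 and -1.17 in 7378K. With every probe set as its own feature, their 7378K intervals were -1.50 to -0.16 and -1.95 to -0.38 (limma adjusted p = 0.14 and 0.094). Those of Gclm and Gss gave -0.05 and -0.04 in 2954K and -0.38 and -0.10 in 7378K. Slc7a11 was dim in all groups, with means of 5.41, 5.90 and 5.87, and 6.54 in 2954K 3 was its highest value. It was not tested.

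In the thioredoxin system, Txn1 had the smallest p-value, with a higher mean under LED light, and the mean of Glrx lay lower. Txn1 encodes cytosolic thioredoxin, which passes electrons to peroxiredoxins. Its signals were 11.50, 11.43 and 11.60 in controls, 12.00, 11.52 and 11.75 in 2954K and 11.81, 11.86 and 11.72 in 7378K. In 2954K, array 2 lay within the control range, and in 7378K all 3 pools lay above it. The Txn1 difference was 0.25 in 2954K (interval -0.01 to 0.51, limma adjusted p = 0.40) and 0.29 in 7378K (0.03 to 0.54, limma adjusted p = 0.18). When only the arrays of the groups compared were fitted, the 7378K difference passed, with a limma adjusted p of 0.025. That fit called 2174 of all 12765 genes in 7378K, in place of 449. With the gap covariate the Txn1 differences were 0.06 and 0.03, though light and gap cannot be told apart in 7378K. In 2954K the Txn1 difference was 0.13 without 2954K array 1 and 0.37 without array 2.

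Glrx, glutaredoxin, which reduces glutathionylated proteins, had signals of 8.86, 8.83 and 8.84 in controls, 8.50, 8.62 and 8.92 in 2954K and 8.62, 8.51 and 8.51 in 7378K. Its difference was -0.16 in 2954K, -0.30 in 7378K (interval -0.62 to 0.02, limma adjusted p = 0.25) and -0.13 between the LED groups (limma adjusted p = 0.98). The reductases Txnrd1 (cytosolic) and Txnrd2 (mitochondrial) differed from control by -0.01 and -0.11 in 2954K and -0.05 and -0.29 in 7378K. Mitochondrial Txn2 differed by -0.12 and -0.17 at its chosen probe set. Its others gave -0.12 and -0.37 in 2954K and -0.36 and -0.89 in 7378K. Other probe sets of Txnrd2 above the filter gave -0.98 and -0.76 in 2954K and -0.97 and -1.33 in 7378K. With every probe set as its own feature, the lowest limma adjusted p among these was 0.068, for Txn2 in 7378K. Txnip, an inhibitor that binds thioredoxin, differed by 0.36 and 0.22, and its highest pools were 2954K 3 at 8.85 and control 3 at 8.67.

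Both tested superoxide dismutases had higher means under LED light at their chosen probe sets, but the probe sets of Sod2 disagreed. Sod2, the mitochondrial manganese enzyme, had signals of 11.30, 11.35 and 11.52 in controls, 11.99, 11.28 and 11.85 in 2954K and 11.74, 11.77 and 11.71 in 7378K. 2954K array 2 was the lowest of all 9, while the 7378K pools lay close together above the controls. The difference was 0.32 in 2954K (interval -0.02 to 0.65, limma adjusted p = 0.40) and 0.35 in 7378K (0.01 to 0.68, limma adjusted p = 0.21). Sod2 depended on the 2954K arrays. Its difference in 2954K was 0.18 without array 1. Without array 2, the difference passed in 2954K, at 0.53 with a limma adjusted p of 0.012, and in 7378K, at 0.35 with 0.030. Of all 12765 genes, 895 and 1211 were called there, in place of 156 and 449. Sod2 also passed in 7378K when only the arrays of the groups compared were fitted (limma adjusted p = 0.012), where 2174 genes were called. With the gap covariate the Sod2 differences were 0.06 and 0.01, and with the same gap of the dap spike-in, an RNA added for labelling, 0.08 and -0.13. The other 3 probe sets of Sod2 differed by 0.11, 0.03 and 0.06 in 2954K and by 0.00, 0.30 and -0.57 in 7378K. The first of them had means of 11.51, 11.61 and 11.51, and the interval of its 7378K difference was -0.19 to 0.20.

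Sod1, the cytosolic copper and zinc enzyme, differed by 0.15 in 2954K and 0.22 in 7378K (intervals -0.11 to 0.41 and -0.04 to 0.48). Sod3 was uneven, with values of 5.94, 6.43 and 7.13 in controls, 4.09, 5.96 and 6.43 in 2954K and 2.87, 6.09 and 4.55 in 7378K. Its group means were 6.50, 5.49 and 4.50, so the LED pools put its mean over the 9 arrays, 5.50, below the filter. A second, dimmer probe set had means of 4.94, 3.54 and 3.58. The third control was the highest pool of Sod3, and the gene was not tested.

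Among the enzymes that remove peroxides, Gpx1 had the largest difference relative to its spread. Gpx1, the main cytosolic glutathione peroxidase, had signals of 10.26, 10.40 and 10.56 in controls, 10.71, 10.48 and 10.97 in 2954K and 10.68, 10.71 and 10.66 in 7378K. All pools of 7378K, and all but array 2 of 2954K, lay above the controls. The difference was 0.31 in 2954K (interval 0.03 to 0.60, 1.24-fold, limma adjusted p = 0.33) and 0.28 in 7378K (0.00 to 0.56, limma adjusted p = 0.23). With the gap covariate the Gpx1 differences were 0.25 and 0.20. In 2954K the Gpx1 difference was 0.19 without 2954K array 3 and 0.44 without array 2. Averaged over both LED groups without 2954K array 2, Gpx1 (0.36), Sod2 (0.44) and Txn1 (0.33) passed, with limma adjusted p-values of 0.031, 0.0053 and 0.025. In that setting 1847 of all 12765 genes were called, in place of 441.

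Gpx4, which detoxifies lipid hydroperoxides and guards against ferroptosis, had means of 13.50, 13.59 and 13.52 at its chosen probe set. The differences of 0.09 and 0.01 had intervals within -0.19 and 0.30. Its other probe set gave a larger difference, 0.39 in both LED groups. Catalase (Cat), which breaks down hydrogen peroxide, differed by 0.02 in both comparisons at its chosen probe set, with intervals from -0.27 to 0.32. The peroxiredoxins Prdx2 (cytosolic) and Prdx3 (mitochondrial) differed by 0.04 and 0.03 in 2954K and -0.05 and 0.10 in 7378K. Prdx4, of the endoplasmic reticulum, differed by -0.04 and -0.19.

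The glutathione S-transferases, which join glutathione to electrophiles, included 3 of 4 tested genes, Gstm1, Gstm2 and Gsta4, that were highest in 1 control pool. Gstm1 had signals of 8.51, 8.28 and 10.81 in controls, 8.88, 8.78 and 9.08 in 2954K and 9.02, 8.54 and 8.82 in 7378K. Gstm2 had 5.60, 5.07 and 9.06 in controls, 6.58, 5.61 and 6.90 in 2954K and 6.16, 5.97 and 5.79 in 7378K. Control 3 was the highest pool of both genes, and it was the pool with the lens marker sum of 159000. The Gstm1 difference was -0.28 in 2954K and -0.41 in 7378K with all arrays, and 0.52 and 0.40 without control 3. For Gstm2 it was -0.21 and -0.60 with all arrays, and 1.03 and 0.64 without control 3. None of these passed the threshold, and the part of lens tissue in them was not tested.

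Gpx3, a secreted glutathione peroxidase, followed control 3 and 2954K 3. Its signals were 7.74, 6.95 and 9.61 in controls, 8.42, 7.20 and 10.83 in 2954K and 8.81, 7.83 and 8.36 in 7378K. Its residual SD of 1.35 was the highest of the members, larger than that of 99.6% of all tested genes. Without control 3 its differences were 1.47 in 2954K and 0.99 in 7378K, against 0.72 and 0.23 with all arrays, with limma adjusted p-values of 0.44 and 0.48. Gsta4, which acts on lipid aldehydes, and Prdx4 were also highest in control 3, at 11.08 and 9.75. Gstp1, the pi-class transferase, was steady, with means of 13.28, 13.38 and 13.33.

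**Figure D3:**
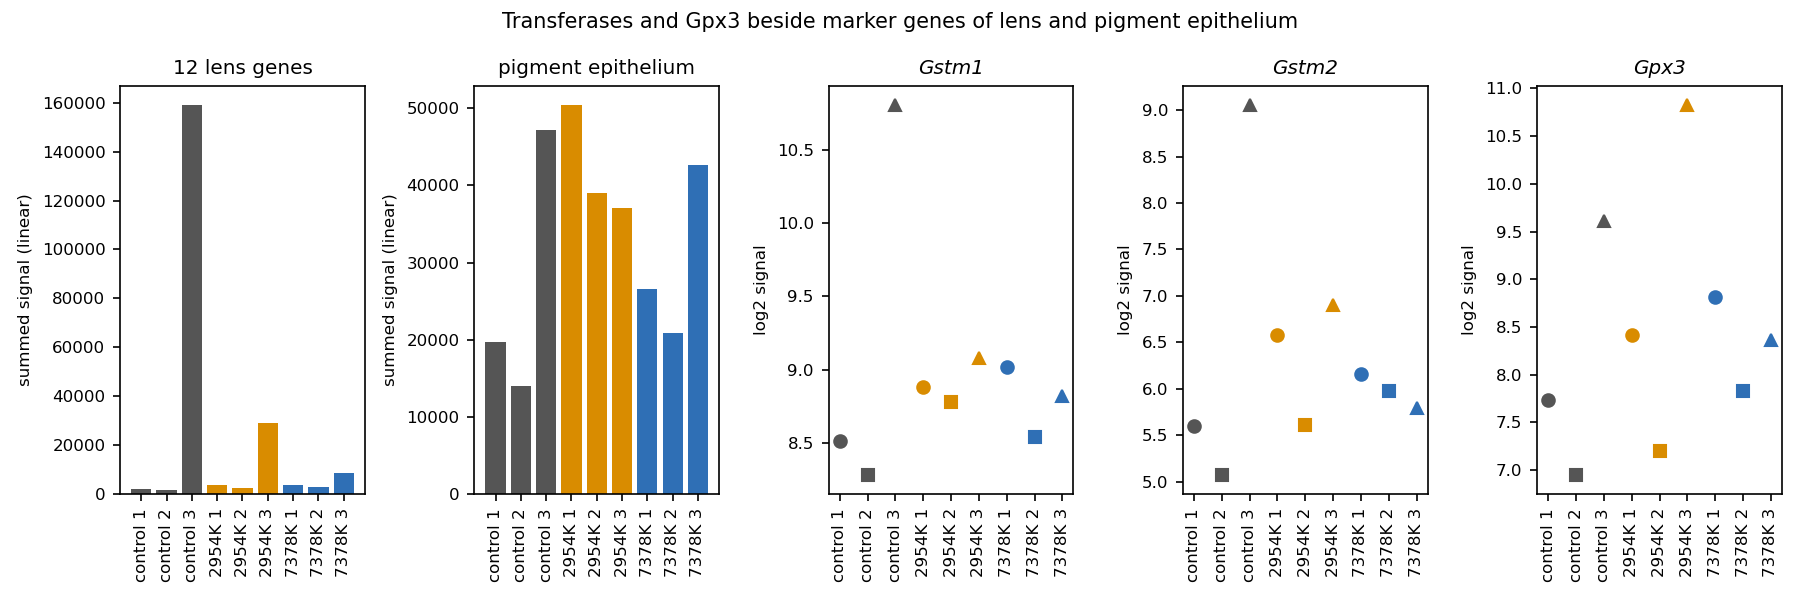
Left, summed linear signal (bars) of the 12 lens and 12 pigment epithelium marker genes in each of the 9 arrays, and right, log2 signal (points) of Gstm1, Gstm2 and Gpx3 in the same arrays. Control 3, with the lens sum of 159000, is the highest pool for Gstm1 (10.81) and Gstm2 (9.06), and 2954K 3 is the highest for Gpx3 (10.83).

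Probe sets of the same gene did not always behave alike. Beside the 28 chosen probe sets, 26 others of 16 member genes lay above the filter. Their median difference was -0.04 in 2954K and -0.37 in 7378K, beside 0.06 and 0.02 for the chosen ones. Over the 9892 probe sets that were not chosen for any gene, it was -0.09 in both. In 7378K, 11 of the 26 differed by less than -0.5 and 3 by more than 0.5. All 6 LED pools lay above all controls for 4 of the 26 (3.44% of the 9892) and below them for 0. The following genes were picked after their values were seen.

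The second probe set of Keap1 read 7.47, 8.22 and 7.59 in controls, 2.51, 8.26 and 6.82 in 2954K and 6.20, 5.80 and 6.32 in 7378K, while the chosen one stayed between 9.77 and 10.11. That of Glrx read 8.13, 8.40 and 7.84 in controls, 5.70, 8.16 and 6.65 in 2954K and 4.70, 5.79 and 6.39 in 7378K. The Glrx difference there was -2.50 in 7378K (interval -3.79 to -1.21), wholly past 2-fold, with a limma adjusted p of 0.051 in the fit of every probe set. In both, 2954K array 2 read like a control and 2954K array 1 was the lowest of its group. These are the 2954K arrays with the lowest and the highest 3′ to 5′ gap, 0.21 and 2.78. The second probe sets of Gsr, Gclc and Txnrd2 had the same order within 2954K, at 7.76, 9.55 and 8.32, at 7.68, 9.12 and 8.69, and at 5.29, 7.87 and 6.86 in arrays 1 to 3. With array 1 lowest and array 2 highest, this order held for 10 of the 26 other probe sets (38.5%) and for 4 of the 28 chosen ones (14.3%). Over all genes it held for 33.1% of other and 18.4% of chosen probe sets. The part of the 3′ to 5′ gap in these values was not tested.

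The 4 probe sets with all LED pools above all controls belonged to Srxn1, Gpx4, Sod1 and Cat. That of Srxn1 differed by 0.73 in 2954K and 0.68 in 7378K (limma adjusted p = 0.29 and 0.13), while its other 2 differed by -0.48 and -0.17 in 2954K and -0.54 and -1.06 in 7378K. That of Gpx4 read 12.92, 12.89 and 13.00 in controls, 13.40, 13.02 and 13.55 in 2954K and 13.34, 13.32 and 13.30 in 7378K (limma adjusted p = 0.28 and 0.10). That of Sod1 differed by 0.35 in 2954K and 0.45 in 7378K (limma adjusted p = 0.25 and 0.053). The Gpx4 and Sod1 sets are of the _x_at and _s_at kinds, whose probes can bind related transcripts.

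The last of the 4 was the second probe set of Cat. It read 9.60, 9.58 and 9.64 in controls, 10.27, 10.06 and 10.24 in 2954K and 9.98, 9.98 and 10.42 in 7378K, so that all LED pools lay above all controls. The difference was 0.59 in 2954K (interval 0.28 to 0.89) and 0.52 in 7378K (0.22 to 0.82), where the chosen probe set gave 0.02 in both. When every probe set was tested as its own feature, a fit added after the values were seen, its limma adjusted p was 0.11 in 2954K and 0.070 in 7378K. In the average of both LED groups it was 0.039, for a difference of 0.55. It was the only one of 54 member probe sets called in that comparison, where 2.22% of 22657 probe sets were called. In 2954K, 7378K and 7378K against 2954K, 0 of 54 were called, against 0.64%, 2.51% and 0%. The Cat call was lost when any 1 of 7 arrays was left out, with limma adjusted p-values of 0.066 to 0.21, and was kept without 2954K array 1 or 2 (0.033 and 0.0090). It was also lost without the third arrays (0.25) and with the gap covariate, where the difference was 0.49 (limma adjusted p = 0.26).

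**Figure D4:**
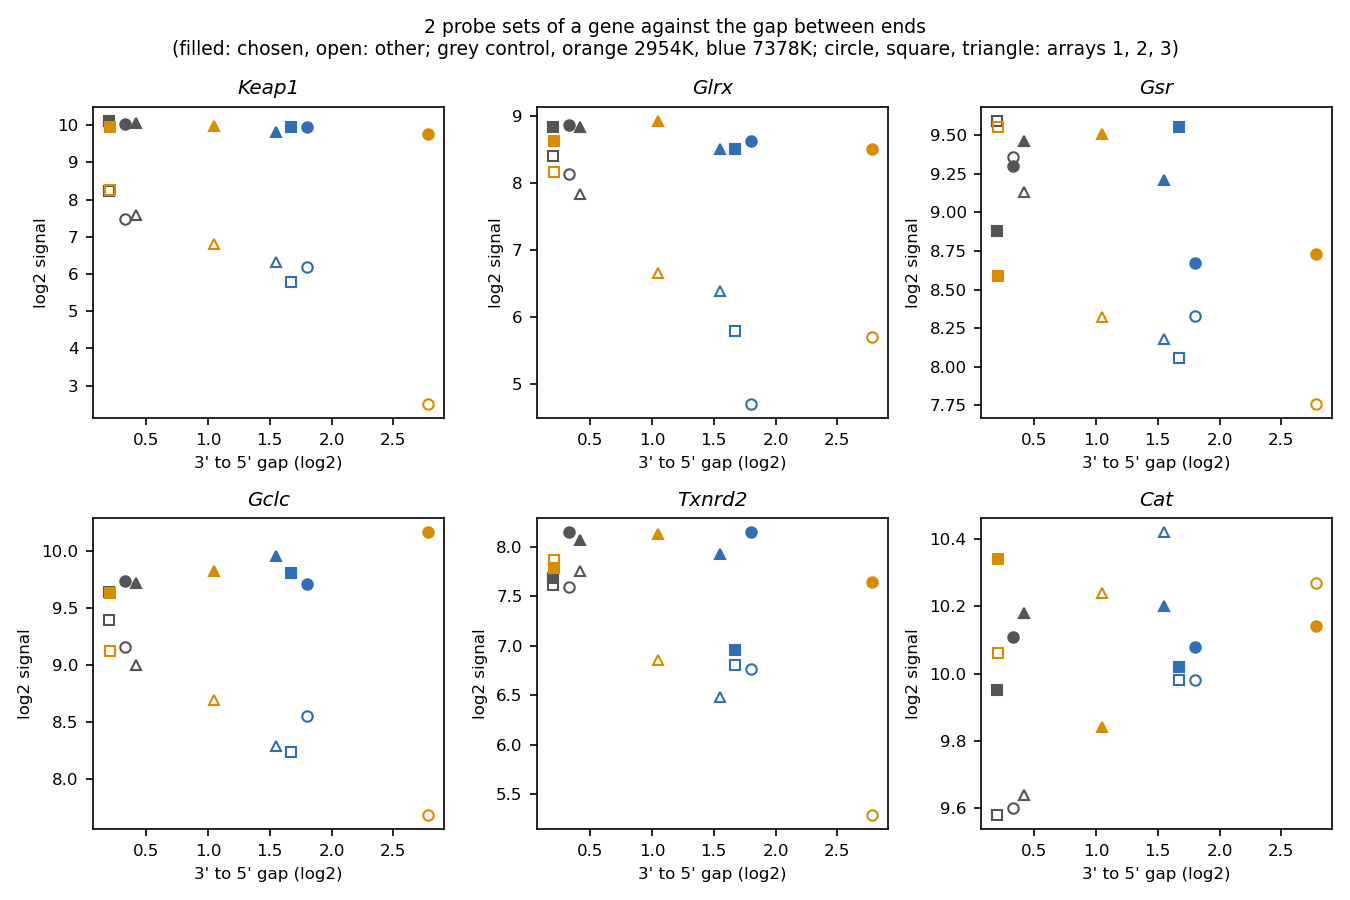
Log2 signal (y axes) of the chosen (filled) and another (open) probe set of Keap1, Glrx, Gsr, Gclc, Txnrd2 and Cat against the 3′ to 5′ gap of each array in log2 units (x axes; grey control, orange 2954K, blue 7378K). For the first 5 genes every open point of the arrays with a gap of 1.05 or more lies below every open point of those with a gap of 0.42 or less, and for Cat the open points of all LED arrays lie above those of the controls.

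Outside the 34 genes, 68 other genes of the pathway were tested, and 3 of them (4.41%) were called in 7378K and 0 in 2954K, shares to be read against 3.52% and 1.22% of all genes. Of 24 other NRF2 targets tested, 0 were called in 2954K. In 7378K, 1 rose and 1 fell, against 2.36% of all genes that rose and 1.16% that fell. Abcc1, a pump for glutathione conjugates, read 10.24, 10.44 and 10.35 in controls, 11.22, 10.72 and 10.95 in 2954K and 11.23, 11.00 and 10.89 in 7378K. All LED pools lay above all controls. It rose by 0.70 in 7378K (interval 0.40 to 0.99, 1.62-fold, limma adjusted p = 0.017), and the difference in 2954K was 0.62 (limma adjusted p = 0.054). Its other probe set gave -0.19 and -0.35, and with both averaged the 7378K difference of Abcc1 was 0.18 (limma adjusted p = 0.42).

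Me1, malic enzyme, which supplies NADPH, read 11.02, 11.19 and 10.97 in controls, 9.47, 11.07 and 10.28 in 2954K and 9.70, 9.68 and 9.86 in 7378K. It fell by 1.31 in 7378K (limma adjusted p = 0.029), and its difference in 2954K was -0.79 (limma adjusted p = 0.27). 2954K array 2 read like a control and array 1 was the lowest, the order of their 3′ to 5′ gaps. With the gap covariate the 7378K difference of Me1 was -0.50 (limma adjusted p = 0.14), and that of Abcc1 was 0.44 (limma adjusted p = 0.22). The other Me1 probe set gave -0.58 in 2954K and -0.34 in 7378K. With both averaged, the 7378K difference of Me1 was -0.83 (limma adjusted p = 0.084).

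Of 32 other glutathione and thioredoxin genes tested, 0 were called in 2954K, and in 7378K 1 rose and 0 fell, beside 2.36% and 1.16% of all genes. It was Nnt, the mitochondrial transhydrogenase that makes NADPH, at 9.93, 9.89 and 9.96 in controls, 10.54, 10.47 and 10.15 in 2954K and 10.81, 10.31 and 10.70 in 7378K. It rose by 0.68 in 7378K (limma adjusted p = 0.027). With the gap covariate the difference was 0.59 and the limma adjusted p 0.24. Other Nnt probe sets gave 0.05 and 0.95 in 7378K, and with all averaged the limma adjusted p was 0.47. Gstt1, a theta-class transferase, differed by 0.58 in 2954K (limma adjusted p = 0.079) and 0.32 in 7378K (limma adjusted p = 0.19).

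The calls of Abcc1, Me1 and Nnt were each lost, among other settings, without 7378K array 1 (limma adjusted p = 0.099, 0.12 and 0.13) and with the third arrays left out (0.12, 0.18 and 0.16). These 2 settings called 144 and 146 of all 12765 genes in 7378K, in place of 449. Of 9 partners and other regulators of NRF2 tested, 0 were called in either LED group. Maff and Mafk, small MAF partners, differed by 1.71 and 0.44 in 7378K (limma adjusted p = 0.20 and 0.24). The Maff means were 5.16 in controls, 5.98 in 2954K and 6.87 in 7378K. The control mean lay below the filter value, so only the LED pools put Maff in the test. Its controls were uneven, at 6.52, 5.77 and 3.19. Of the oxidant-producing enzymes, 3 were tested and 0 were called. Cyba, a subunit of the phagocyte oxidase, differed by 0.94 in 2954K (limma adjusted p = 0.18) and 0.78 in 7378K (limma adjusted p = 0.14). Rac2, a GTPase of that oxidase, differed by -0.18 and 0.63 (limma adjusted p = 0.90 and 0.45). Its means were 5.76 in controls, 5.58 in 2954K and 6.39 in 7378K, so only the 7378K pools put it in the test. The microglial and macrophage marker sum was at least 8980 in each LED pool and at most 3860 in each control, and its part in the Cyba values was not tested.

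Hmox1, heme oxygenase, was named after its values were seen because its induction is a classic sign of NRF2 activity. It read 5.35, 4.27 and 5.20 in controls, 6.55, 6.10 and 6.56 in 2954K and 6.12, 6.47 and 6.58 in 7378K. All controls lay below the filter value of 5.91 and all LED pools above it, and its mean over the 9 arrays, 5.91, put it in the test only through the LED pools. The LED means of Hmox1, 6.40 in 2954K and 6.39 in 7378K, lay 0.50 and 0.49 above the filter value. That value is a cutoff on mean signal and not a limit of detection, so no size of a rise is given. Hmox1 was not called in either LED group.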

How the data were processed

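The 9 deposited columns were log2 values of MAS5-type signals. MAS5 and affy are named, with no version or order, in the submitters' processing notes. The number 2 raised to the deposited log2 values had a 2% trimmed mean of 500 on each array, and no further scaling was applied. Of 45101 probe sets, 64 were controls, 34945 had 1 symbol, 932 several and 9160 none in the platform annotation. 34741 of the 34945 matched RefSeq genes by identifier. Genes under the 40th percentile (5.91) were left out. The linear model had a mean for each group and 6 residual degrees of freedom over the 9 arrays. It was fitted in R 4.3.3 by limma 3.58.1 (eBayes with an intensity trend), with Benjamini-Hochberg adjustment over 12765 genes, and was tested on simulated data. Values were read with the package data.table (version 1.17.8), and figures drawn with matplotlib 3.10.9.

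The labels call the pools biological replicates. Array number limits precision. No detection calls were used, and probe sets ending in _x_at or _s_at can bind related transcripts, the mu-class transferases among them. The members and lists were chosen with earlier results of these data known. Every pool is given for Nfe2l2, Keap1 and the 3 members with the smallest p in each comparison, and of each pathway list the called genes and the 2 with the smallest p in an LED comparison are named. Other members given in full were picked after their values were seen. Alternatives covered normalisation, filters, probe set choice, covariates, blocks and arrays left out.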

Additional observations from a re-analysis of the deposited data

Results flagged for a closer look

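Prdx1, a peroxiredoxin of the cytosol, was measured only by 5 probe sets that the annotation shares with the predicted gene Gm21399, and so entered no comparison of the report. On 1 of the 5, all LED pools lay above all controls, beside 3.44% of the 9892 probe sets not chosen for any gene. This probe set read 11.09, 10.92 and 10.95 in controls, 11.64, 11.35 and 11.20 in 2954K and 11.50, 11.35 and 11.46 in 7378K, and the LED mean was higher by 0.43 on the log2 scale. The other 4 overlapped between LED and control pools. Their differences from control were 0.09 to 0.37 in 2954K and -0.01 to 0.59 in 7378K. The probe sets were not tested, and signal of Prdx1 and Gm21399 cannot be told apart on them.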

How the results depend on the processing

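The count of members called stayed at 0 in 7378K against 2954K under every alternative, and in the other comparisons under all but these. In 7378K it was 1 when all probe sets of a gene were averaged (Glrx), where 255 of all 11799 genes were called. It was 2 with only the arrays of the groups compared (Txn1 and Sod2), where 2174 of all 12765 genes were called. With 1 array left out it ranged from 0 to 1 in 2954K, 0 to 1 in 7378K and 0 to 3 in the average of both LED groups, each time through 2954K array 2, without which 895, 1211 and 1847 of all genes were called in place of 156, 449 and 441. The members' median in 2954K, 0.063 with all arrays, ranged from -0.011 to 0.152 with 1 array left out (without 2954K arrays 3 and 2, and 0.142 without control 3), and was -0.028 with averaged probe sets. The median in 7378K, 0.02 with all arrays, was -0.144 with averaged probe sets and -0.104 with the 3′ to 5′ gap of the dap spike-in as a covariate, and ranged from -0.050 to 0.113 with 1 array left out (without controls 2 and 3). Averaging a gene's probe sets turned Nfe2l2 in 2954K to -0.03 and Txn1 in 2954K to -0.02, by taking in a dim probe set. The dap covariate turned Txn1 in 7378K to -0.04 and Sod2 to -0.13, and leaving out the third arrays turned Glrx in 7378K against 2954K to 0.01. The cause of these last changes was not tested. The array numbers were not taken to pair the pools, since the labels do not say that they mark a shared litter, day or batch. Same-numbered arrays deviated together with correlations of 0.06 to 0.33, those of the third arrays being 0.33, 0.21 and 0.15. The third array also had the highest lens marker sum of each group. With a replicate block, 0 members were called in each comparison, and 163, 638 and 0 of all genes in 2954K, 7378K and 7378K against 2954K. The number of arrays limits what could be called.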
